A study of Mus musculus with 6 samples.

Results

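The genes that place, remove and read acetyl groups on histones were followed in heart muscle cells with reduced Acly. The list held 32 genes of the 46078 counted gene identifiers, chosen by name and function: 13 writers (lysine acetyltransferases and coactivators), 17 erasers (histone deacetylases and sirtuins) and 2 readers (Brd2 and Brd3), together with the 14 annotated features whose exons overlap theirs on the other strand. Poly-A RNA from mouse cardiomyocytes isolated by heart perfusion was sequenced in 2 groups of 3 libraries. In the Acly_KD group Acly was knocked down with mice that carry Cas9 under Myh6, a promoter active in heart muscle cells, and the control group is labelled wildtype. Whether the controls carry Cas9, which guides were used, and the age and sex of the animals are not given in the sources used here. Nothing in the labels ties each library to an animal of its own; the p-values therefore reflect variation among these libraries, which may be technical. Values per library are given in the order of replicates 1, 2 and 3.

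Histone acetyltransferases take the acetyl group from acetyl-CoA and place it on lysines of histone tails, which loosens chromatin and marks active promoters and enhancers. Acly makes acetyl-CoA from citrate in the cytosol and nucleus and is one source of that substrate; Acss2, which uses acetate, is another. Zinc-dependent deacetylases (HDACs) hydrolyse the mark, sirtuins remove it at the expense of NAD, and bromodomain proteins such as Brd2 and Brd3 bind acetylated lysines and recruit the transcription machinery. In heart muscle, class IIa deacetylases such as Hdac4 hold MEF2 transcription factors in check, and Sirt3 is the main deacetylase of mitochondrial proteins. The question put to the data was whether transcripts of these writers, erasers and readers differ between Acly_KD and control. It was also asked for which of them the counts allow an answer.

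The counts look strand-swapped, with reads counted for the feature facing the transcript. Reads in features numbered 271463 to 814765 per library, 2.81% to 3.07% of uniquely aligned reads. A gene's mRNA therefore appears in the counts of a feature that lies across from its exons, and the count under a gene's own name holds reads of the wrong strand or the mRNA of a neighbour across from it. Acly itself has no exon across from it and read 0, 0 and 0 wrong-strand reads in the Acly_KD libraries and 1, 5 and 6 in the controls, so these counts do not measure its mRNA and cannot check the knockdown. Own-locus reads per mRNA read, with own-locus reads taken as wrong-strand, form the strand ratio. Over 340 genes tested in both readings, relative to the mean of the 6 libraries, it came to 0.871, 0.929 and 1.17 for Acly_KD and 1.10, 1.07 and 1.00 for control. Where a gene is read through a coding feature, its own-locus reads may be that feature's mRNA, and the 340 genes include such genes. After these values were seen, the ratio was also taken over 2 narrower sets of genes. Over 114 genes not read through a coding feature it spread more widely, at 0.616, 0.916 and 1.32 for Acly_KD and 1.24, 1.14 and 1.03 for control, and over the 111 coding genes among them it was 0.613, 0.915 and 1.32 against 1.23, 1.14 and 1.04. The order of the libraries was the same in all 3. Reads opposite to Xist, the RNA of the inactive X chromosome, came to 149 in control replicate 2 and 137 in control replicate 3. They came to 0 in the other 4 libraries, which are all those of Acly_KD and control replicate 1. The sex of the animals is not given, so a difference that goes with these reads cannot be fully told apart from the knockdown. Of 10 ventricular and shared heart muscle markers, Atp2a2, Myl2 and Ttn were read as mRNA. They read 41082 ± 3446, 1978 ± 344 and 1573 ± 193 CPM in control (reads per 1000000 after TMM scaling, with SD, n = 3). In Acly_KD they read 41901 ± 3486, 2130 ± 316 and 2367 ± 404 CPM. Of 5 atrial markers, Nppa and Kcnj3 read 4744 ± 2988 and 1434 ± 148 CPM in control and 7026 ± 4454 and 1091 ± 48.2 CPM in Acly_KD. The groups did not overlap for Ttn and Kcnj3 (adjusted p = 0.073 and 0.230 in edgeR), against 14.7% of all 1453 genes tested as mRNA. They overlapped for Atp2a2, Myl2 and Nppa. No marker of endothelial cells, fibroblasts, pericytes and smooth muscle or immune cells on the lists used could be read as mRNA. At their own loci Pecam1, Myh11, Rgs5, Tagln and Csf1r of these lists had enough reads to be tested. Whether such cells were present was not tested.

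Of the 32 genes, 21 had no exon of another gene across from them, and 11 did. In the reading of mRNA, a feature's reads went to the gene across from it if that gene held 80% or more of the overlap, shared 50 or more bases and had a lower count of its own. This gave counts to 6 of the 32, and 5 passed the filter on low counts: the writers Kat5 and Ncoa3 and the erasers Hdac4, Hdac11 and Sirt3. These 5 are 15.6% of the list, where 6.10% of the 21583 coding genes in the tables were readable. Both readers, all class I deacetylases (Hdac1, Hdac2, Hdac3 and Hdac8), and the p300 and CBP genes Ep300 and Crebbp fell outside this reading.

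The stretches through which the 5 genes were read are of different kinds, and the sequences below show where each mRNA enters or leaves its shared stretch. All are written 5′ to 3′ on the strand of the acetylation gene, from GENCODE transcripts of the mm10 build, with the bases shared with the feature across from it in capitals. For Hdac11 the shared coding exon is given whole with 15 bases of mRNA on each side; it was picked for this after its place in the coding sequence was seen.
Kat5 (chr19:5603425-5603454, minus strand, end of coding sequence): cactcccaaagactgGAGCAAGAGAGGAAA
Ncoa3 (chr2:166073074-166073103, plus strand, 3′ UTR): actgagaacacatttGGGGTTAATCACATT
Hdac4 (chr1:91991600-91996071, minus strand, spliced coding sequence): ctcttaggaaaacagCTTCTGAACCTAACC
Hdac11 (chr6:91157531-91165570, plus strand, spliced coding sequence around exon 3): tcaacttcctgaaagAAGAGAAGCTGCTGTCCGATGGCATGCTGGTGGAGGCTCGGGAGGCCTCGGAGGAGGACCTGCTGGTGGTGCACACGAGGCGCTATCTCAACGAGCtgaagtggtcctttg
Sirt3 (chr7:140878131-140882172, minus strand, spliced 5′ UTR): TTTGGCGAGGACTAGtgttacaggtgggag

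Kat5 and Rnaseh2c, a subunit of ribonuclease H2, converge tail to tail on 426 shared bases (chr19:5603014-5603439), of which 407 lie in the 3′ UTR of Kat5 and 19 in its coding sequence. Ncoa3 and the sulfatase gene Sulf2 also converge, on 154 bases of 3′ UTR (chr2:166073089-166073242), a stretch annotated in 1 of the 2 coding transcripts of Ncoa3. For Hdac11, 96 of the 101 bases of exon 3 (of 10) lie across from the antisense RNA Gm14573 (chr6:91159161-91159256), and all 3 coding transcripts of Hdac11 hold them. The remaining exonic bases of Gm14573 (451 in all) also lie within the Hdac11 gene but outside its exons, so reads of unspliced Hdac11 RNA can enter the count. For Hdac4 this holds more widely: Gm26720, a long noncoding RNA, shares 3536 of its 3538 exonic bases (chr1:91989051-91992626) with Hdac4, but 132 of these are coding and 3404 belong to noncoding Hdac4 transcripts alone. Sirt3 and Psmd13, a proteasome subunit gene, diverge from a common start region with 342 shared bases (chr7:140881968-140882309). Of these, 152 lie in the 5′ UTR of coding Sirt3 transcripts and 190 in noncoding Sirt3 transcripts alone. An exon in this stretch is held by 2 of the 6 coding Sirt3 transcripts. Counts are of whole features, so reads outside the shared stretch enter them too. The shared bases are 2.62% of the exonic bases of Sulf2, 10.1% of Psmd13 and 24.8% of Rnaseh2c.

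**Figure D1:**
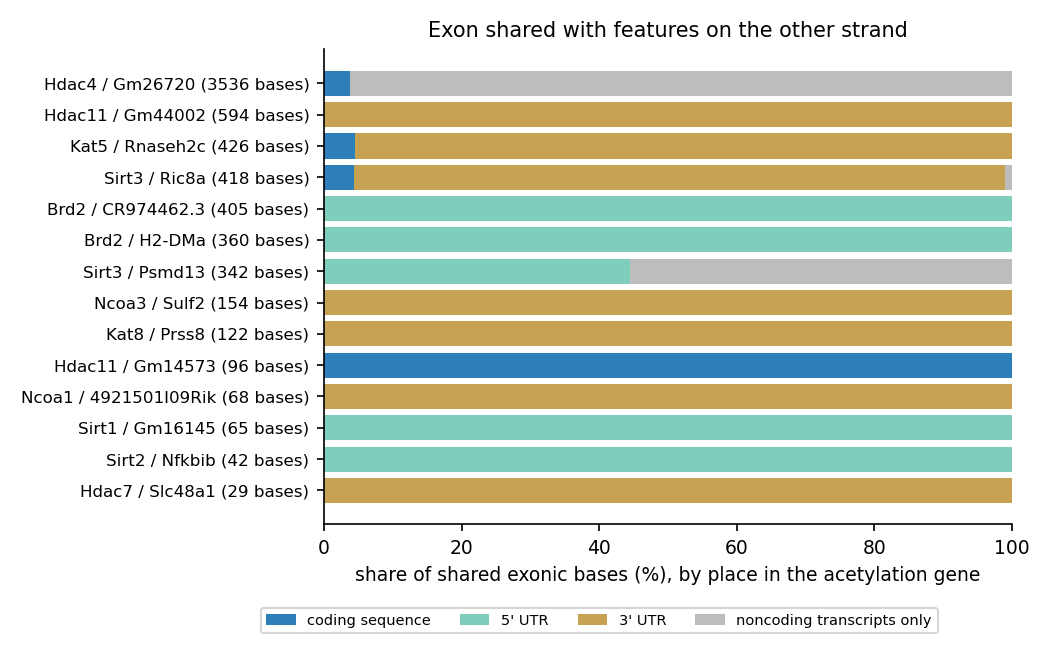
Share of the exonic bases (%) that each histone acetylation gene has in common with a feature on the other strand, split by their place in the acetylation gene; each bar is a gene and feature, with the number of shared bases. Coding sequence fills the whole bar for Hdac11 and Gm14573 (96 bases), whereas noncoding transcripts make up 3404 of the 3536 bases of Hdac4 and Gm26720.

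The 11 features across from the listed genes that are in the tables ranged widely in reads per exonic base. Gm14573 held 357 reads per kilobase in the 6 libraries together, Rnaseh2c 224, Gm26720 43.0, Sulf2 39.2 and Psmd13 21.9. These 5 are the features that passed both the overlap rule and the filter on low counts, so high values among them follow in part from that choice. Ric8a held 102 reads in all, more than Psmd13 with 74, and was kept out by the overlap rule. Among the rest, Ric8a across from Sirt3 held 14.4, Nfkbib across from Sirt2 11.5, Prss8 across from Kat8 10.3 and Slc48a1 across from Hdac7 8.72, while H2-DMa across from Brd2 and Gm16145 across from Sirt1 held 0. Over 16348 coding features without opposite-strand exons, which were not filtered, the median was 0 reads per kilobase and 53.7% had no read. Reads of the acetylation gene, wrong-strand reads of the feature itself and reads of an RNA antisense to it cannot be told apart in these counts. The rule required a gene's own count to be lower than that across from it, so the pairs of totals are given only as a description: 161 reads across from Hdac11 and 2 at its own feature, 152 and 9 for Hdac4, 230 and 15 for Ncoa3, 384 and 32 for Kat5, and 74 and 36 for Sirt3.

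**Figure D2:**
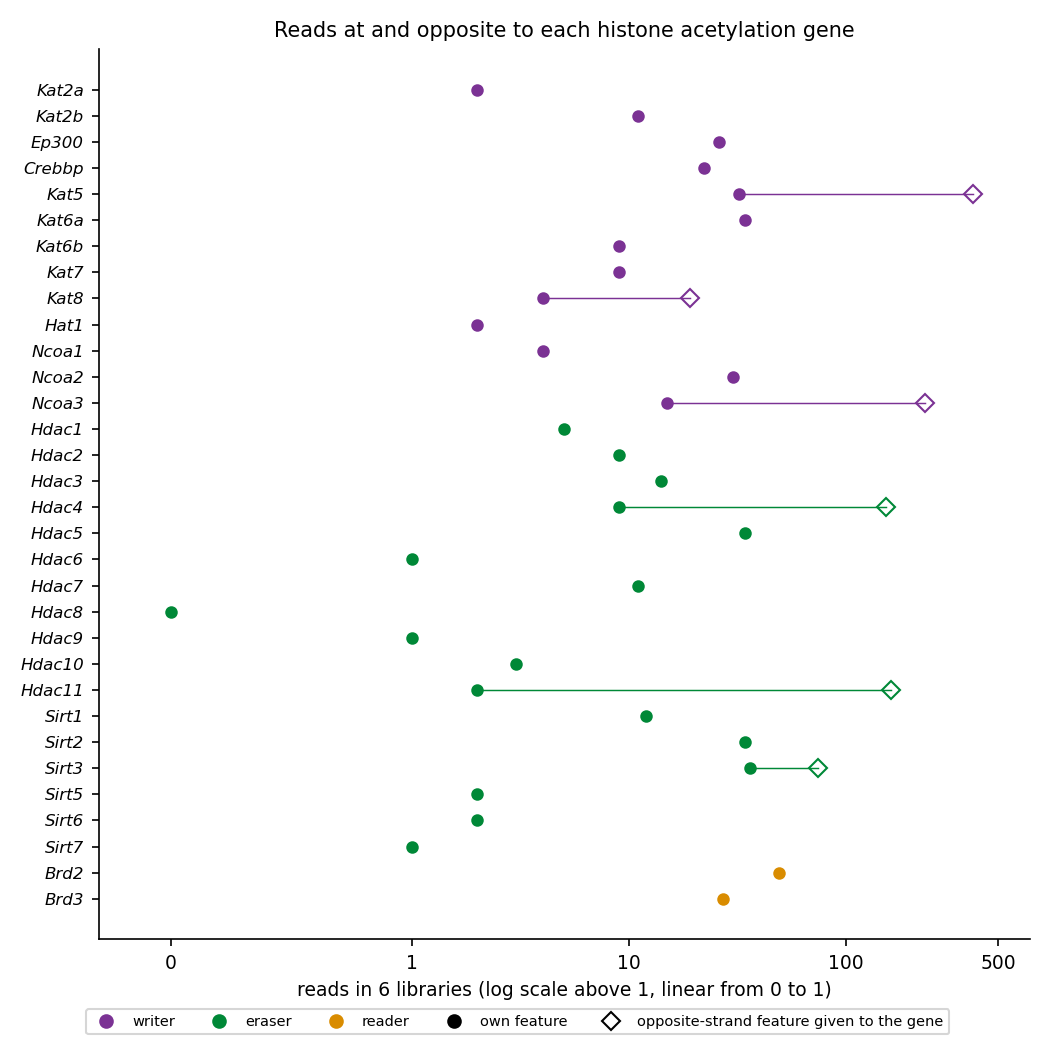
Reads summed over the 6 libraries for each of the 32 genes, on an axis that is logarithmic above 1 read and linear from 0 to 1; filled circles are the gene's own feature and open diamonds the opposite-strand feature given to it, coloured by role. Own features run from 0 reads (Hdac8) to 49 (Brd2), and 6 genes have a diamond, from 19 reads (Kat8) to 384 (Kat5).

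None of the 5 readable genes passed the test between Acly_KD and control (0 of 5, in edgeR's quasi-likelihood fit, Benjamini-Hochberg adjusted p below 0.05), where 0.413% of the 1453 genes tested in this reading passed. At an unadjusted p below 0.05 it was also 0 of 5, against 8.6% of the 1453, and DESeq2 and limma-voom called 0 of 5 as well. Their log2 fold changes (Acly_KD over control) ran from -0.33 to 0.18 with a median of 0.02, beside a median of 0.01 over all 1453 genes, with 3 above zero and 2 below. The groups overlapped for all 5, while 14.7% of the 1453 genes had groups that did not overlap. These p-values do not show that the levels were equal, so the 95% interval of each difference is given below.

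Kat5 encodes the MYST family acetyltransferase Tip60, which acetylates histones H4 and H2A and acts in the response to DNA damage. It read 184, 242 and 192 CPM in the Acly_KD libraries and 206, 223 and 174 CPM in the controls, on 29 to 96 reads per library. The highest value was in Acly_KD replicate 2 and the lowest in control replicate 3, with the other 4 between them. The means were 206 ± 31.1 CPM in Acly_KD and 201 ± 24.6 CPM in control (SD, n = 3 each). In edgeR the log2 fold change came to 0.02 (SE 0.23) with an adjusted p of 0.986, and it was -0.10 without Acly_KD replicate 2 and -0.07 without control replicate 3. The 95% interval ran from -0.46 to 0.50, which is 0.728-fold to 1.41-fold, the narrowest of the 5.

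Ncoa3 encodes a p160 coactivator of nuclear receptors that recruits p300 and CBP. It read 123, 150 and 104 CPM in the Acly_KD libraries and 114, 111 and 131 CPM in the controls, on 16 to 48 reads per library. Acly_KD held both the highest value (replicate 2) and the lowest (replicate 3), so that the control values lay within its range. The means were 126 ± 23.5 CPM in Acly_KD and 119 ± 10.6 CPM in control (SD, n = 3 each), and the log2 fold change was 0.05 (SE 0.28, 95% interval -0.52 to 0.63, adjusted p = 0.954 in edgeR). Without Acly_KD replicate 2 it was -0.08.

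Hdac4, the class IIa deacetylase that binds MEF2 factors and moves between nucleus and cytoplasm, read 22.3, 100 and 93.5 CPM in the Acly_KD libraries and 78.3, 116 and 65.4 CPM in the controls. Acly_KD replicate 1 stood below the other 5 libraries, on 8 reads, and Acly_KD replicates 2 and 3 fell within the range of the controls. The log2 fold change was -0.33 (SE 0.44, 95% interval -1.26 to 0.60, adjusted p = 0.914 in edgeR). It was 0.12 without Acly_KD replicate 1 and 0.00 without control replicate 2. Acly_KD replicate 1 also had the lowest strand ratio (0.871). With the strand ratio as a term in the fit, the log2 fold change of Hdac4 was -0.18 over 340 genes, -0.027 over 114 and -0.021 over 111. In the same fits Sirt3 was 0.30, 0.31 and 0.31, farther from zero than its 0.18 without the term. Hdac11 was -0.10, -0.13 and -0.13, Kat5 0.022, 0.051 and 0.050, and Ncoa3 -0.036, -0.025 and -0.025. The part of the strand ratio in these values was not tested.

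Hdac11, the sole class IV deacetylase, read 89.4, 72.9 and 78.4 CPM in the Acly_KD libraries and 78.3, 104 and 70.9 CPM in the controls. Both the highest and the lowest value were in control, in replicates 2 and 3, with the Acly_KD values between them. The means were 80.2 ± 8.37 CPM in Acly_KD and 84.5 ± 17.7 CPM in control (SD, n = 3 each), and the log2 fold change was -0.09 (SE 0.32, 95% interval -0.75 to 0.57, adjusted p = 0.944 in edgeR). Without control replicate 2 the log2 fold change was 0.13.

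Sirt3, a mitochondrial sirtuin, read 41.9, 18.2 and 55.6 CPM in the Acly_KD libraries and 42.7, 34.8 and 32.7 CPM in the controls, on 4 to 22 reads per library. The Acly_KD libraries spanned the whole range, with replicate 3 the highest and replicate 2 the lowest of the 6. For Sirt3 edgeR gave 0.18 on the log2 scale (SE 0.47) at an adjusted p of 0.939, and the interval, -0.79 to 1.15, was the widest of the 5. Ric8a, a chaperone gene for G protein alpha subunits, shares 418 bases with the other end of Sirt3 and read 19, 8 and 15 reads in the Acly_KD libraries and 16, 27 and 17 in the controls. Sirt3 has 51.7% of the opposite-strand overlap of Ric8a, so these reads were not given to it. Where the minimum share and the minimum of shared bases were both dropped, which lets these reads in, the log2 fold change of Sirt3 was -0.33. Without Acly_KD replicate 3 and with Psmd13 alone it was -0.16.

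**Figure D3:**
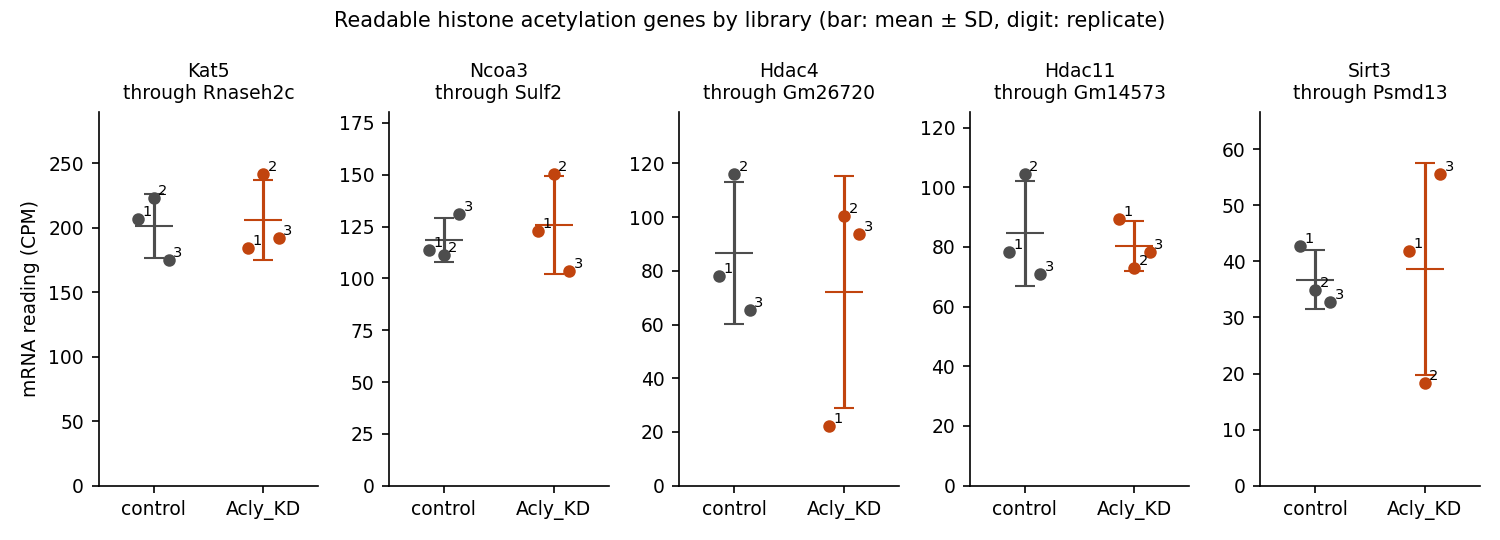
CPM in the reading of mRNA for the 5 readable histone acetylation genes, each panel with its own linear axis from 0; points are libraries with their replicate number, bars the mean ± SD of 3 libraries. The groups overlap in every panel, and Acly_KD replicate 1 stands apart for Hdac4 at 22.3 CPM.

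A further 3 genes had reads across from them that fell short of the rule or the filter. Kat8, the MYST acetyltransferase of histone H4 lysine 16, shares 122 bases of 3′ UTR with Prss8, which read 5, 4 and 3 reads in the Acly_KD libraries and 4, 2 and 1 in the controls. That is too few for the filter. Sirt2 shares 42 bases with Nfkbib (1 to 7 reads per library), and Hdac7 shares 29 bases with Slc48a1 (0 to 8 reads per library), both under the minimum of 50. Sirt2 also had only 11.8% of the opposite-strand overlap of Nfkbib, and its own 34 reads exceeded the 25 of Nfkbib. It thus missed every condition of the rule. For Sirt1 and Brd2 the features across from them, Gm16145 and H2-DMa, read 0 in all 6 libraries. Gm44002 across from Hdac11, 4921501I09Rik across from Ncoa1 and CR974462.3 across from Brd2 are not among the counted gene identifiers, so they have no reads to give.

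At their own loci the 32 genes held 452 reads in the 6 libraries together, and 0 of them passed the filter on low counts, so none was tested as deposited. Among the 2952 features that were, edgeR passed 0 (0%), although 180 had an unadjusted p below 0.05. DESeq2 also passed 0, and weighted limma-voom passed 1 higher and 2 lower. Leaving out Acly_KD replicate 3 gave 23 higher and 46 lower over 2998 features as deposited. In that setting 1 of the 32 genes was tested and 0 were called. Without Acly_KD replicates 1 and 2, which leaves replicate 3 alone in that group, 8 of the 32 were tested. With so few tested, the absence of calls says little about the 32 genes. The writers held 200 reads over 13 genes, with a median of 11 per gene, the erasers 176 over 17 genes, with a median of 5, and Brd2 and Brd3 held 49 and 27. Among the writers without an exon across from them, Kat6a held 34 reads, Ncoa2 30, and Ep300 and Crebbp, the p300 and CBP acetyltransferases, 26 and 22. Kat2a, the GCN5 acetyltransferase, and Hat1, which acetylates new histone H4, held 2 each. Among the erasers, Hdac5, another class IIa enzyme, held 34 reads, Hdac3 14, Hdac2 9 and Hdac1 5, while Hdac6, Hdac9 and Sirt7 held 1 each. Hdac8 read 0 in all 6 libraries, where 3 reads correspond to 3.55 to 10.9 CPM depending on the library. These floors cover counting error only and concern the wrong strand.

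Brd2, a BET family reader, had the most own-locus reads of the list, 0, 8 and 11 in the Acly_KD libraries and 2, 21 and 7 in the controls. The groups overlap, and Acly_KD replicate 1 was the library at 0. Brd3, the other reader, read 1, 1 and 10 against 2, 7 and 6, with Acly_KD replicate 3 the highest of the 6. Neither is a measure of mRNA: Brd3 has no exon across from it, and the exons across from Brd2 are those of H2-DMa and CR974462.3.

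Summed over the 21 genes with nothing across from them, own-locus reads came to 21, 15 and 87 in the Acly_KD libraries and 22, 56 and 43 in the controls. Scaled to library size these were 32.2, 36.6 and 108.7 CPM in Acly_KD and 80.1, 66.3 and 61.8 CPM in control. Acly_KD replicates 1 and 2 lay below all controls and replicate 3 above them, which gave 59.2 ± 43.0 CPM in Acly_KD and 69.4 ± 9.53 CPM in control (SD, n = 3 each). In CPM the order of the 6 libraries was the same as that of their strand ratio over each of the 3 sets of genes. That ratio is taken from the same libraries and also counts own-locus reads, of other genes. The 3 sets lie one within another, so these are not 3 separate comparisons. Taken per 10000 reads of all nuclear features without opposite-strand exons, the sums were 9.33, 7.64 and 16.2 in the Acly_KD libraries and 12.9, 10.5 and 11.1 in the controls, with means of 11.1 ± 4.55 and 11.5 ± 1.28. In this scaling the order no longer matched that of the strand ratio. Acly_KD replicate 2 lay below replicate 1, and control replicate 2 below control replicate 3. The part of the strand ratio in these sums was not tested.

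**Figure D4:**
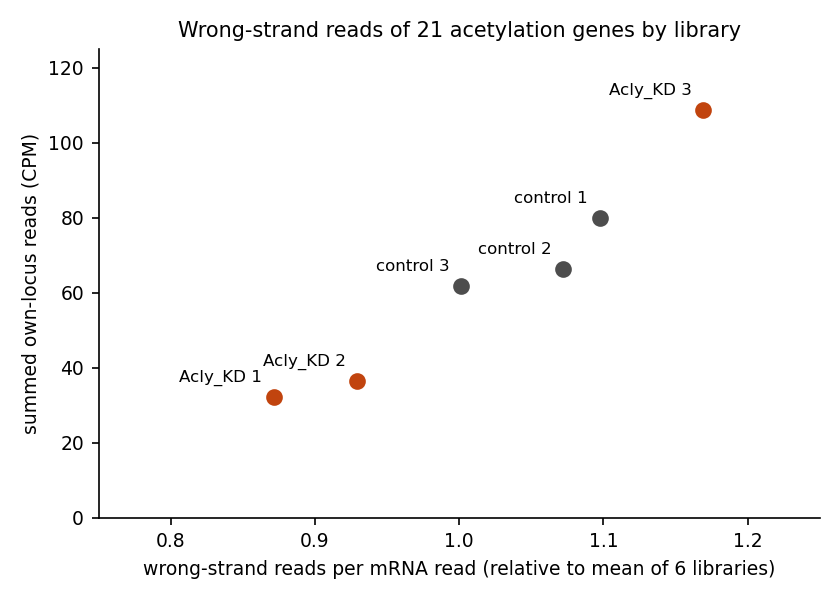
Own-locus reads (CPM, vertical axis from 0) against the strand ratio of each library. Reads are summed over the 21 histone acetylation genes with no exon across from them. The strand ratio is own-locus reads, taken as wrong-strand, per mRNA read over 340 genes, relative to the mean of the 6 libraries. Each point is a library. Acly_KD replicates 1 and 2 lie lowest (32.2 and 36.6 CPM) and Acly_KD replicate 3 highest (108.7 CPM) on both axes, with the controls between them.

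A second list gave 101 other genes of histone acetylation: subunits of writer and eraser complexes, further bromodomain and YEATS readers, MEF2 factors and suppliers of acetyl-CoA and NAD. In the reading of mRNA 13 of the 101 could be tested, and 0 passed in edgeR and in DESeq2, and 0 had an unadjusted p below 0.05. Of the 13, 8 lay above zero and 5 below, with a median log2 fold change of 0.07. The groups did not overlap for 3 of the 13 (Naa60 and Tada1 higher, Mef2d lower), against 14.7% of all genes tested. As deposited 20 of the 101 were tested and 0 passed, by edgeR and by DESeq2, with 0 below an unadjusted p of 0.05 and a median of -0.11 beside -0.04 over all 2952 features.

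The suppliers of acetyl-CoA were among the best read of these. Pdha1, a subunit of the pyruvate dehydrogenase that makes acetyl-CoA in mitochondria, read 24089, 25536 and 21988 CPM in the Acly_KD libraries and 23555, 20285 and 21612 CPM in the controls, through Map3k15, with a log2 fold change of 0.13 (95% interval -0.07 to 0.33, adjusted p = 0.722 in edgeR). Its groups overlapped. Acss2, the acetyl-CoA synthetase that serves the same cytosolic and nuclear pool as Acly, read 369, 328 and 303 CPM in the Acly_KD libraries and 263, 383 and 286 CPM in the controls, through Acss2os. Control replicate 2 was the highest of the 6 and control replicate 1 the lowest. The log2 fold change of Acss2 was 0.07, and the interval of -0.33 to 0.47 corresponds to 0.798-fold to 1.39-fold (adjusted p = 0.939 in edgeR). For Crat, carnitine acetyltransferase, read through Gm16323, the interval was -0.36 to 0.21.

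Of the writers and readers in the second list, Naa60, an acetyltransferase that acts on protein N-termini, read 975, 1103 and 1165 CPM in the Acly_KD libraries and 918, 966 and 951 CPM in the controls. All 3 Acly_KD values lay above the controls, and edgeR put the log2 difference at 0.19 (SE 0.13) with an adjusted p of 0.721. Tada1, a subunit of the SAGA acetyltransferase complex, read through Pogk, lay higher in the same way at 0.34 (SE 0.26, adjusted p = 0.761 in edgeR). Rcor3, a corepressor that works with Hdac1 and Hdac2, had the value farthest from zero, 0.62, on 2 to 28 reads per library (95% interval -0.31 to 1.55, adjusted p = 0.721 in edgeR). It was 0.28 without Acly_KD replicate 1, 0.40 without control replicate 1 and 0.25 with both overlap minimums dropped. Brwd1, a bromodomain protein, lay at -0.33 (95% interval -1.21 to 0.55, adjusted p = 0.911 in edgeR), and at 0.01 without control replicate 1. Mef2d, the partner of class IIa deacetylases, read 546 ± 32.7 CPM in Acly_KD and 589 ± 11.3 CPM in control (SD, n = 3 each), or -0.11 on the log2 scale (95% interval -0.43 to 0.20, adjusted p = 0.912 in edgeR). At their own loci the values were -0.61 for Crat, 0.29 for Acss2, 0.18 for Pdha1, -0.24 for Tada2b and -0.13 for Mef2d, with adjusted p from 0.938 to 0.977 in edgeR. The own-locus value of Crat was -0.06 without control replicate 2 and -1.01 without Acly_KD replicate 3, and that of Acss2 was 0.08 without Acly_KD replicate 1.

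**Figure D5:**
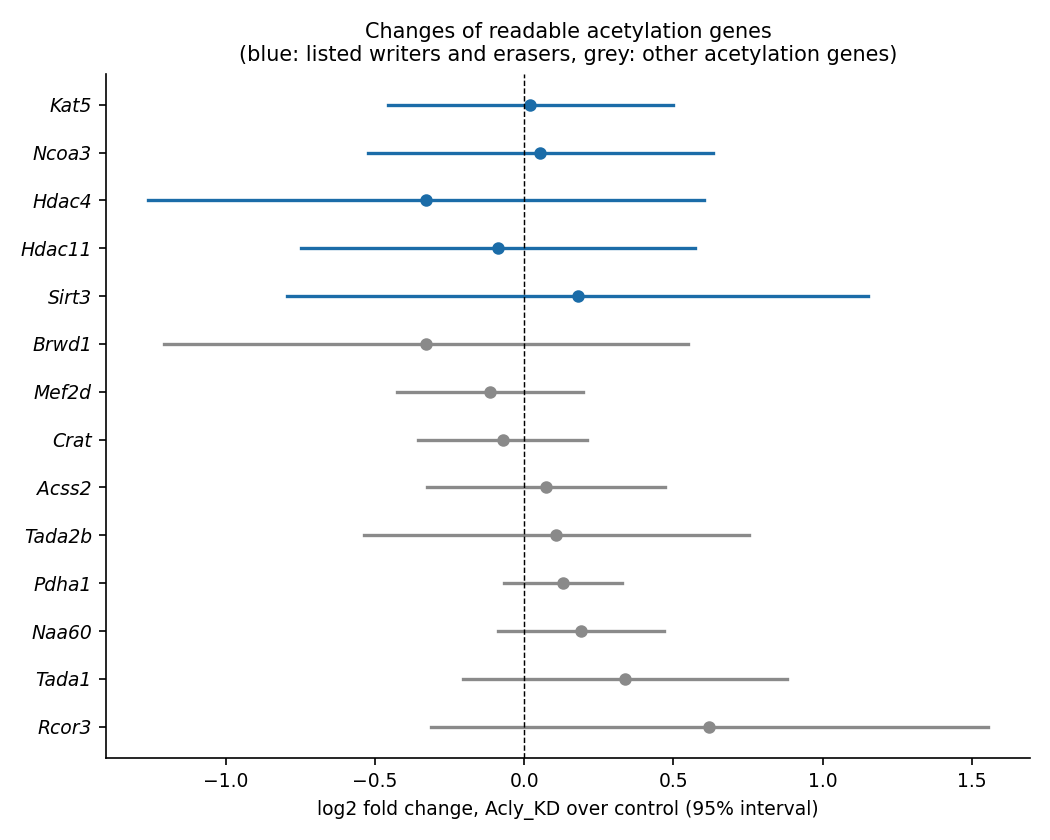
Log2 fold change of Acly_KD over control in the reading of mRNA, with 95% intervals, for the 5 readable listed genes (blue) and the 9 readable genes of the second list named by rule (grey). Every interval shown includes zero, from the narrow one of Pdha1 (-0.07 to 0.33) to that of Sirt3 (-0.79 to 1.15).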

How the data were processed

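Per the submitters' processing notes, the tools were FastQC, TopHat2, SAMtools, HTSeq and DESeq2 (no versions named) on mm10. Each deposited table holds raw read counts by gene identifier, as the authors left them. Which strand HTSeq was told to use is not stated in the sources used here. Rows that name no gene, which hold 97.4% to 97.7% of all counts of a library, stayed out. Exons came from GENCODE M21 of the same build, which matched 45229 of 46078 identifiers. Tests of both readings used edgeR 4.0.16 under R 4.3.3 (TMM; filterByExpr, minimum count 10; robust quasi-likelihood; Benjamini-Hochberg over all features). The rule that gives counts to mRNA is in the text; intervals at 95% come from the fold change and its test statistic. The members, lists and rules were chosen with earlier results of these data known. All members are accounted for; from the second list the 5 readable genes with the smallest p in each reading are named (how to read this rule was settled after the p-values were seen), besides those whose groups did not overlap and the suppliers of acetyl-CoA; values of the others are not reported here. Libraries of a group differed beyond counting noise (chi-square over its degrees of freedom 3.43 to 10.1). Steps were tested on simulated data. Alternatives were DESeq2 1.42.0 (test and size factors), limma-voom 3.58.1, library totals, all uniquely aligned reads, other filters, a replicate block, terms for the strand ratio (3 sets of genes were tried, the second and the third chosen after the values of the first were seen) and for Xist, other overlap rules, and libraries left out.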

Additional observations from a re-analysis of the deposited data

How the results depend on the processing

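No gene of the list of 32 was called (0) in any of the 22 settings of the mRNA reading (3 to 6 genes tested) or the 20 as deposited (0 to 31 tested), the main ones included, and none (0) of the second list. Because 0 of the 32 were tested as deposited, no fold change of theirs is given there. The Xist term and the strand ratio over 114 and 111 genes were chosen after seeing the data; the Xist term leaves control replicate 1 as the only control set against Acly_KD. These log2 fold changes changed sign. Kat5 was -0.060 when scaled by all uniquely aligned reads, -0.017 with the Xist term and -0.090 without Acly_KD replicates 1 and 2. Ncoa3 was -0.021 when scaled by all uniquely aligned reads, -0.036, -0.025 and -0.025 with the strand ratio over 340, 114 and 111 genes, and -0.23 without that pair. Hdac4 was 0.050 without that pair and Hdac11 0.044 with the Xist term. Sirt3 was -0.33 with the minimum share of the overlap and the minimum of shared bases both dropped, and -0.076 with the Xist term. Pdha1 as mRNA was -0.014 without that pair. At their own loci Mef2d was 0.088 and 0.094 with the strand ratio over 114 and 111 genes and 0.48 without that pair, and Tada2b was 0.88 with the Xist term. With each library left out in turn the ranges were -0.095 to 0.12 for Kat5, -0.076 to 0.18 for Ncoa3, -0.67 to 0.12 for Hdac4, -0.22 to 0.13 for Hdac11, -0.16 to 0.45 for Sirt3, -0.66 to 0.012 for Brwd1 and 0.28 to 0.92 for Rcor3, and at own loci -1.01 to -0.061 for Crat, 0.078 to 0.47 for Acss2, -0.060 to 0.47 for Pdha1, -0.43 to 0.20 for Tada2b and -0.58 to 0.079 for Mef2d. Rcor3 was 0.25 with both overlap minimums dropped and 1.96 with the Xist term. Over the settings other than leaving out 1 library, the ranges were -1.09 to -0.070 for Brwd1, -0.33 to 0.61 for Sirt3 and -0.59 to 0.050 for Hdac4. The value of -1.09 came with the Xist term, 0.61 without Acly_KD replicates 1 and 2, and -0.59 from limma-voom. In those settings Kat5 ran from -0.090 to 0.073, Ncoa3 from -0.23 to 0.12 and Hdac11 from -0.17 to 0.044. The cause was not tested. Over all genes as deposited, the strand ratio term called 2 higher and 1 lower over 340 genes, 4 and 1 over 114, and 4 and 4 over 111, in place of 0. Read as mRNA it called 0 higher and 1 lower with each set, in place of 3 and 3. With the replicate block no listed gene was called (0), and over all genes read as mRNA it called 5 higher and 7 lower. Libraries share only a number: same-numbered libraries correlated at -0.18 to -0.01 in their deviations, and none correlated best with its own number. Without Acly_KD replicate 3 the calls over all genes were 8 higher and 12 lower read as mRNA and 23 and 46 as deposited, and without Acly_KD replicates 1 and 2 they were 1 and 1, and 10 and 26. Of the 32 genes, 26 have no count taken as their mRNA. Of these, 21 have no exon across from them. The other 5 face features that miss the overlap minimums, read 0 or are not among the counted gene identifiers. The number of reads kept Kat8 out of the test.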
